A study of Arabidopsis with 2 samples.

Results

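The YABBY and KANADI genes examined here encode transcription factors that mark and specify the abaxial side of cotyledons and leaves, the side that faces away from the shoot apex. Of the 7 genes on the list, chosen by locus identifier, 3 had a probe that could be analysed among the 21500 gene probes of the arrays. These were FIL (AT2G45190, also named AFO and YAB1) and YAB3 (AT4G00180) of the YABBY family and KAN2 (AT1G32240) of the KANADI family. No gene probe carried the locus identifier of YAB2 (AT1G08465), YAB5 (AT2G26580), KAN1 (AT5G16560) or KAN3 (AT4G17695). The values below thus describe 2 of 4 listed YABBY genes and 1 of 3 listed KANADI genes. None of the 3 met the p limit with which the study selected genes lower in cuc1 cuc2, in either direction. Few probes did, with 0.242% of all gene probes meeting it as lower and 0.502% as higher. FIL was nearly equal in both genotypes, YAB3 gave a signal 1.23-fold higher in cuc1 cuc2 than in Ler, and KAN2 one 1.10-fold higher.

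In plants, the flat organs of the shoot are built from an adaxial and an abaxial side, and the blade grows out where these meet. KANADI proteins of the GARP family repress transcription and promote abaxial fate, in opposition to the class III HD-ZIP proteins of the adaxial side. FIL and YAB3 are closely related and partly redundant YABBY genes that are expressed on the abaxial side of organ primordia, including cotyledons, and their products act in abaxial identity, blade growth and the repression of meristem genes in leaves. CUC1 and CUC2 are NAC transcription factors of the boundary between cotyledons, and embryos without both form a cup of fused cotyledons and no shoot meristem. The comparison asks whether abaxial transcripts differ in embryos that lack this boundary.

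The wild type was the accession Landsberg erecta (Ler), and the mutant was the cuc1-1 cuc2-1 double mutant. Torpedo stage embryos of both were used, with about 100 embryos pooled for each RNA sample. Embryos of both genotypes were excised in 6% glucose and fixed in ethanol and acetic acid, and no other treatment is given. The parents of the mutant embryos were cuc1-1 plants heterozygous for cuc2-1, and these and the Ler parents were kept at 23°C in continuous light. Mutant embryos thus came from parents whose progeny also include other genotypes. How the mutant embryos were recognised at excision is not given in the sources used here. Both RNA extracts were amplified, labelled and hybridized together on each of 2 oligonucleotide arrays. In replicate 1 the cuc1 cuc2 cRNA carried the dye Cy3 and the Ler cRNA carried Cy5, and in replicate 2 the dyes were exchanged. The replicates are technical, with 1 extract per genotype, so no test across embryo samples can be made, and every error below describes the scanner software's error model or the difference between the hybridizations. In a whole embryo, fewer cells of a type and less RNA per cell cannot be told apart.

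All 3 genes were detected in both genotypes. Each probe was classed by the scanner software as well above background in 4 of 4 channels, a channel being 1 genotype on 1 array, and 0 of their spots were marked as saturated, outlying or non-uniform. Of all gene probes, 84.2% were well above background in every channel. In replicate 1 the FIL probe had a scanned brightness of 741 for cuc1 cuc2 and 888 for Ler, over local backgrounds of 71 and 68, and in replicate 2 one of 990 and 735 over 67 and 73. For YAB3 the brightness in replicate 1 was 331 for cuc1 cuc2 and 265 for Ler, and 385 and 317 in replicate 2. For KAN2 it was 314 and 264 in replicate 1, and 303 and 290 in replicate 2. The raw brightness of FIL changed its order with the dye, being higher in Cy5 each time, while that of YAB3 and of KAN2 was higher in cuc1 cuc2 with either dye.

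FIL is a YABBY gene whose loss alters floral organs and the inflorescence. After background correction and dye normalization by the software, replicate 1 gave a signal of 4794 for cuc1 cuc2 and 4935 for Ler, and replicate 2 gave 4790 and 4771. The 4 values lay close together and the genotypes overlapped. As a log2 ratio, with cuc1 cuc2 set over Ler, this was -0.042 (error 0.16) in replicate 1 and 0.0058 (error 0.17) in replicate 2. Its mean was -0.018 with an error of 0.12, and the 95% interval of the error model ran from -0.25 to 0.21. In terms of signal, a level in cuc1 cuc2 more than 1.19-fold lower or 1.16-fold higher than in Ler lies outside that interval, which covers technical error only. FIL ranked 12044 from the highest of the 21500 gene probes.

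YAB3 is the closest relative of FIL in Arabidopsis, and the loss of both genes gives stronger organ defects than the loss of either. Its normalized signal in replicate 1 was 1488 for cuc1 cuc2 and 1174 for Ler, and in replicate 2 it was 1651 and 1374. The signals of cuc1 cuc2 were both above those of Ler. The log2 ratio was 0.34 (error 0.18) in replicate 1 and 0.26 (error 0.19) in replicate 2, with a mean of 0.30 and an error of the mean of 0.13. The 95% interval of the error model ran from 0.043 to 0.56, or from 1.03-fold to 1.48-fold. The deposited p-value of the ratio was 0.0610 in replicate 1 and 0.169 in replicate 2. YAB3 ranked 1187 from the highest, and a ratio of at least this size in either direction was found for 6.86% of the probes well above background. A ratio of this size was therefore not rare on these arrays.

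**Figure D1:**
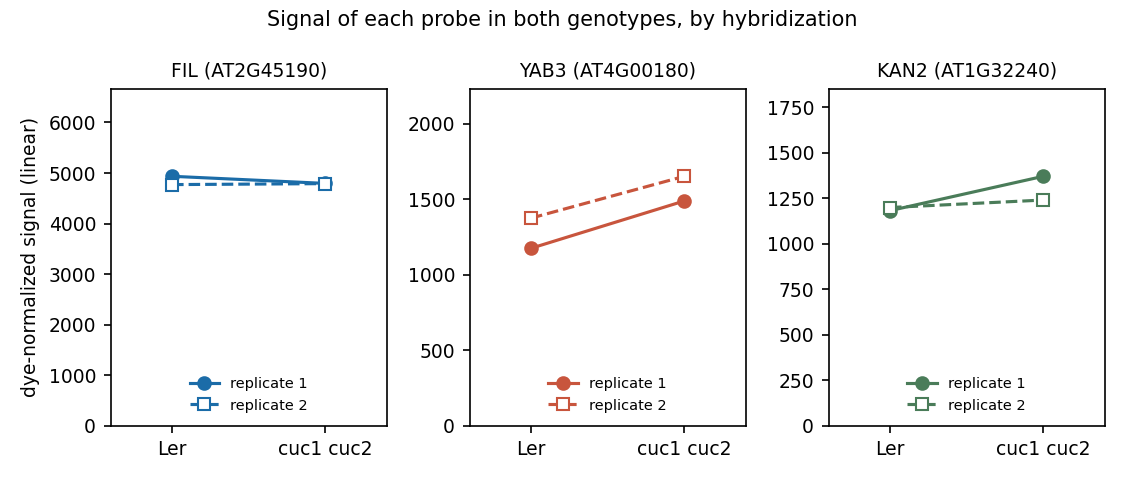
Dye-normalized signal (linear axis from 0) of the FIL, YAB3 and KAN2 probes in Ler and cuc1 cuc2; filled circles with solid lines are replicate 1, open squares with dashed lines are replicate 2, and no error is drawn. The lines of FIL are almost level near 4800, both lines of YAB3 rise from Ler to cuc1 cuc2, and the KAN2 lines start together in Ler and end at 1370 and 1240.

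KAN2 encodes a GARP transcription factor that acts redundantly with KAN1 in abaxial identity. Replicate 1 gave a normalized signal of 1370 for cuc1 cuc2 and 1181 for Ler, and replicate 2 gave 1240 and 1199. The Ler signals nearly coincided, and the signals of cuc1 cuc2 lay above them by unequal amounts. The log2 ratio was 0.21 (error 0.18) in replicate 1 and 0.049 (error 0.21) in replicate 2. The mean of 0.13 was smaller than the difference of 0.17 between the hybridizations, and the 95% interval of the error model ran from -0.14 to 0.40. KAN2 ranked 3859 from the highest, with deposited p-values of 0.241 and 0.812.

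To select genes lower in cuc1 cuc2, the study required the scanner software's p-value to be under 0.01 on each of the arrays. Here the same limit was also used for genes higher in cuc1 cuc2, and a gene meeting it in either direction is named called. This rule called 0 of the 3 genes lower and 0 higher in cuc1 cuc2. The same rule called 0.242% of all gene probes lower and 0.502% higher, so calls were rare on these arrays and their absence among 3 genes says nothing particular about them. At the errors of these probes, a log2 ratio had to exceed 0.42 in replicate 1 and 0.43 in replicate 2 for FIL to reach that limit. For YAB3 the limits were 0.47 and 0.50, and for KAN2 they were 0.47 and 0.53. Changes smaller than these could not be called at this precision. A ratio beyond 0.5 on the log2 scale in both hybridizations, which 0.344% of all probes had in the lower and 0.712% in the higher direction, was reached by 0 of the 3 genes.

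**Figure D2:**
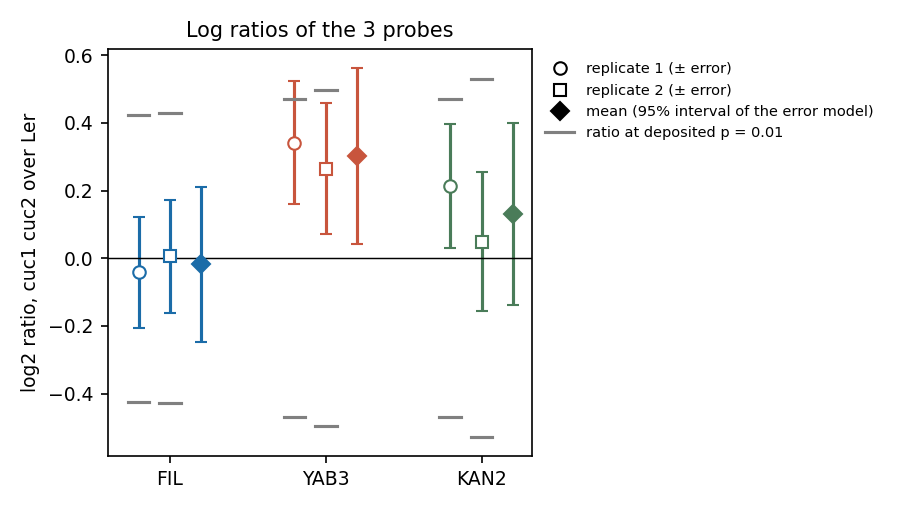
Ratio (log2, cuc1 cuc2 over Ler) for each probe: open circles and squares are replicates 1 and 2 with the error of the software, diamonds are their means with the 95% interval of the error model, and grey dashes are the ratios at which the deposited p-value would reach 0.01. No open point passes its grey dash, and of the 3 intervals of the means only that of YAB3, from 0.043 to 0.56, does not contain 0.

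YAB3 and KAN2 were above 0 in both hybridizations and FIL was above 0 in one and below 0 in the other. Over all gene probes, 23.1% were above 0 in both and 22.9% were below 0 in both. The median log2 ratio of the 3 genes was 0.13, beside -0.00059 over all gene probes. The hybridizations differed by 0.048 for FIL and 0.077 for YAB3, less than the median difference of 0.14 among probes well above background, and by 0.17 for KAN2, slightly more. The part of the ratio that followed the dye, which cancels in the mean, was 0.024 for FIL, -0.038 for YAB3 and -0.083 for KAN2 in the direction of Cy5 over Cy3.

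**Figure D3:**
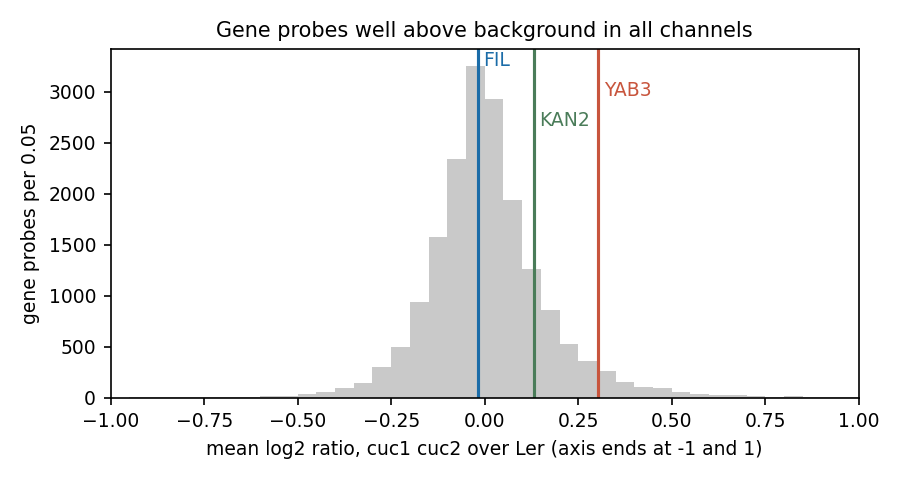
Number of gene probes per 0.05 of the mean ratio (log2, cuc1 cuc2 over Ler), among the 18102 probes well above background in all channels, with the means of the 3 genes as vertical lines; probes beyond -1 or 1 are not drawn. FIL lies at the centre of the distribution, KAN2 on its right flank and YAB3 near the 95th percentile of 0.29.

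The genes were also compared with each other by their ratios. The ratio of YAB3 exceeded that of FIL by 0.32 on the log2 scale (error 0.18), by 0.38 in replicate 1 and 0.26 in replicate 2. The 95% interval of this difference, from -0.025 to 0.67, contained 0. KAN2 exceeded FIL by 0.15, with an interval from -0.20 to 0.50, and YAB3 exceeded KAN2 by 0.17, with an interval from -0.20 to 0.55. The order of the ratios, with YAB3 highest and FIL lowest, was the same in both hybridizations, but no neighbours in it differed beyond the technical error. How alike the probes of FIL and YAB3 are in sequence was not tested, so binding of a transcript to the probe of its relative was not tested either.

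Other processing of the scanned signals left the order in place and made the ratios smaller. With normexp background correction and loess normalization the log2 ratio was 0.24 for YAB3 and 0.11 for KAN2, and without background correction it was 0.19 and 0.085. FIL stayed between -0.014 and 0.0082 in the 4 combinations tried, and its sign was not the same in all of them, so FIL has no direction in these data. YAB3 and KAN2 remained above 0 in the 4 combinations and in each hybridization alone.

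**Figure D4:**
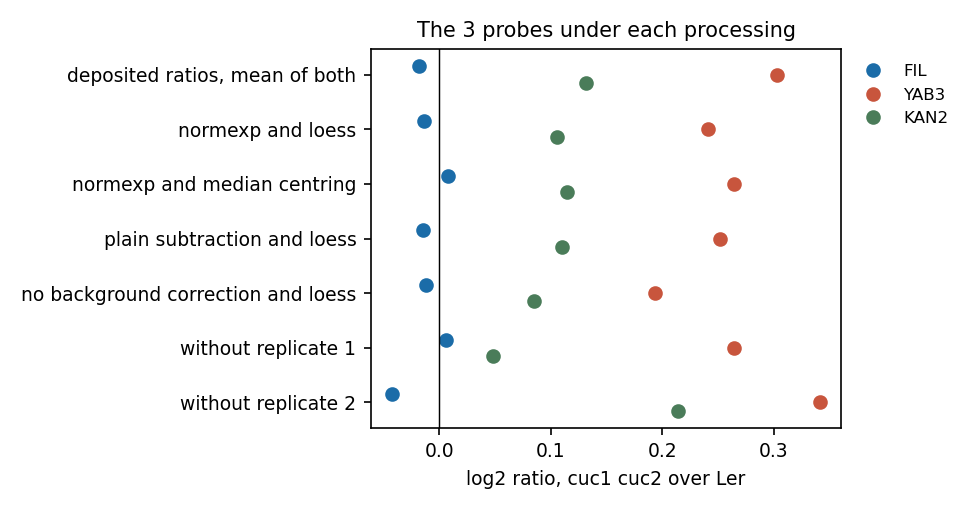
Ratio (log2, cuc1 cuc2 over Ler) of the 3 probes from the deposited ratios, from 4 other combinations of background correction and normalization, and from each hybridization alone. FIL stays within 0.042 of 0, KAN2 ranges from 0.049 to 0.21 and YAB3 from 0.19 to 0.34.

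The pattern of YAB3, which had the largest ratio of the 3, was compared with that of the other 18101 probes well above background, by the distance between their pairs of hybridization ratios. The nearest were AT2G03440 (NRP1) with a distance of 0.0094, AT1G72820 with 0.012 and AT2G42690 with 0.013. In all, 283 probes lay within 0.1 of YAB3, and a likeness over only 2 hybridizations of the same extracts says little about a gene.

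The remaining members of these families in the list of companion genes are known from floral organs and ovules, and their technical errors were larger than those of FIL, YAB3 and KAN2. CRC, a YABBY gene of carpels and nectaries, had log2 ratios of 0.045 (error 0.46) and 0.11 (error 0.58). ATS, a KANADI gene of the ovule integuments, had -0.12 (error 0.26) and 0.44 (error 0.34). INO, a YABBY gene of the outer integument, was well above background in 2 of 4 channels, both in replicate 2, and its ratios of -1.33 (error 2.10) and 1.08 (error 1.04) point in opposite directions. The ratios of INO and ATS changed sign between the hybridizations, and 0 of the 3 genes was called.

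Among 6 genes of abaxial auxin response factors and of the tasiRNA pathway, 0 were called and the median log2 ratio was 0.0035. ETT and ARF4 encode auxin response factors that act with KANADI proteins on the abaxial side. The log2 ratio of ARF4 was 0.50 (error 0.17) in replicate 1 and 0.38 (error 0.17) in replicate 2, with deposited p-values of 0.00329 and 0.0243, so it passed the limit in one hybridization only. ETT had 0.40 and 0.28, with errors of 0.17 each and p-values of 0.0152 and 0.0914. Beside these, YAB3 had a mean of 0.30, and the means of ARF4 and ETT were 0.44 and 0.34. Under the other processing ARF4 and ETT were between 0.31 and 0.43, and YAB3 was between 0.19 and 0.26. By the deposited ratios DCL4, a Dicer that makes the tasiRNAs that target ETT and ARF4 transcripts, was the lowest of the list at -0.22, but its hybridizations differed in sign at -0.52 and 0.072. RDR6, an RNA polymerase of the same pathway, had -0.030 and -0.34, and in 3 of the 4 other combinations it was lower than DCL4.

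Of 7 adaxial regulators, 0 were called, 4 were above 0 in both hybridizations, and the median was 0.10. Among all gene probes well above background, 26.1% were above 0 in both. The 5 class III HD-ZIP genes, whose products oppose KANADI function, ran from -0.023 for PHV to 0.26 for CNA, with PHB at 0.10, REV at 0.13 and ATHB8 at 0.14. AS1, whose product works with AS2 in the leaf, was at 0.31 in replicate 1 and -0.17 in replicate 2. AS2, which KAN1 represses on the abaxial side, had a mean of -0.22, with errors of 0.53 and 0.79 in the hybridizations. The ratio of YAB3 lay within its error of that of CNA, and that of KAN2 within its error of those of REV and ATHB8.

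Of 6 genes for co-repressors, 0 were called and the median was -0.044. In the 4 other combinations this median ran from -0.026 to 0.0017, so its sign was not stable. LUG, LUH and SEU, whose products bind YABBY proteins, had mean log2 ratios of -0.11, 0.058 and 0.027. SLK2 had a mean of 0.082, and TPL, a co-repressor of many plant transcription factors, had one of -0.24, from -0.26 and -0.22 with errors of 0.17 each. SLK1 also had a mean of -0.24, but with an error of the mean of 0.91.

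Among 10 genes of blade growth, 0 were called, 7 were above 0 in both hybridizations and 2 below 0 in both, and the median log2 ratio was 0.26. Of all gene probes well above background, 26.1% were above 0 in both. The CIN-type TCP genes slow cell division as organs mature. TCP4 had log2 ratios of 0.38 and 0.43, TCP2 had 0.31 and 0.48, and TCP13 had 0.25 and 0.74 at errors of 0.36 and 0.50. TCP5 and TCP10 were also above 0 in both hybridizations, and so was TCP24, at 0.036 and 0.092. TCP3 differed in sign, at 0.28 and -0.060, and TCP17 was below 0 in both, at -0.15 and -0.012. By the mean of the deposited ratios TCP13 was the highest of the list at 0.49, but under each of the 4 other combinations it was lower, at 0.16 to 0.26, than TCP4 at 0.33 to 0.37. PRS, a WOX gene of the organ margin, had -0.39 and -0.28 at errors of 0.36 and 0.72. With the other ways of processing the scanned signals, the median of this list was only 0.096 to 0.16.

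FIL and YAB3 repress class I KNOX genes in leaves. Of the 4 genes of that class, only STM, a regulator of the shoot meristem, was called, as lower in cuc1 cuc2, with log2 ratios of -1.99 and -2.18. The size of its change depended on the processing, with mean ratios of -1.27 to -0.79 in the 4 other combinations. KNAT1 at 0.21, KNAT2 at 0.16 and KNAT6 at 0.077 were above 0 in both hybridizations by less than 1.5 times their errors of the mean of 0.15, 0.18 and 0.18. Earlier work cited by the paper found STM and KNAT6 expression missing from the boundary region of cuc1 cuc2 embryos, whereas the values here are from whole embryos. The paper describes STM as a direct target of CUC1. A part of FIL or YAB3 in the ratios of the KNOX genes was not tested.

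**Figure D5:**
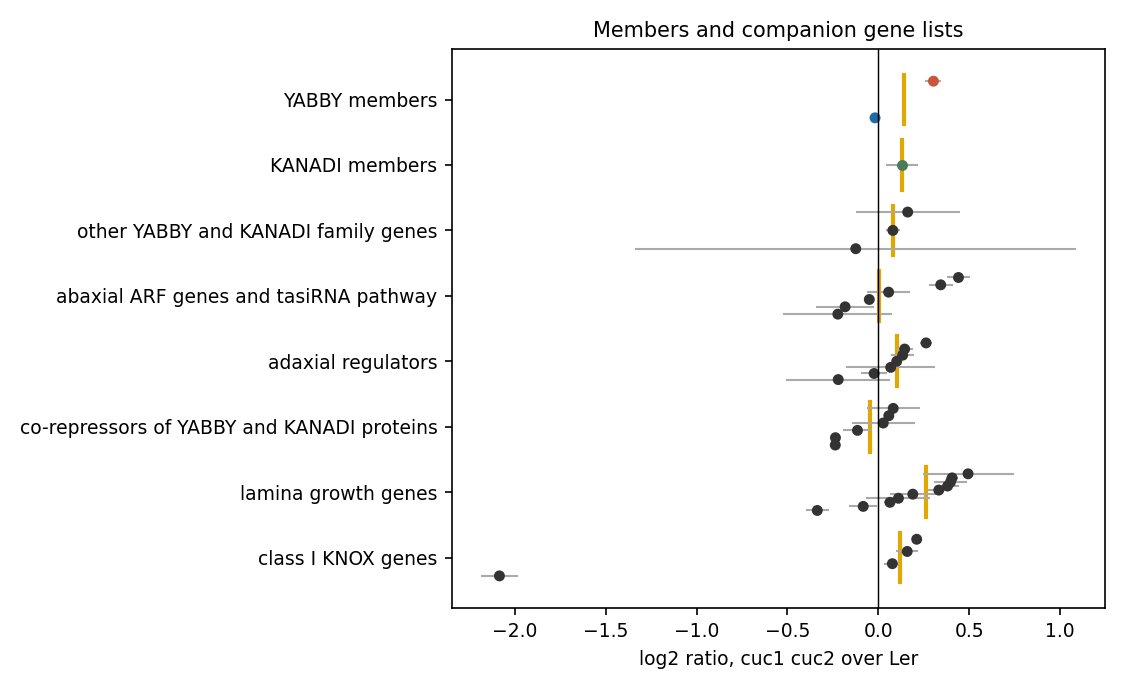
Mean ratio (log2, cuc1 cuc2 over Ler; points) for the members and the companion lists, with a grey line from the value of replicate 1 to that of replicate 2 and a yellow bar at the list's median; FIL is blue, YAB3 red and KAN2 green. STM at -2.08 is the only point beyond -0.5 or 0.5, and the widest grey line is that of INO, from -1.33 to 1.08.

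Of the mutated genes, CUC2 had log2 ratios of -0.999 (error 0.30) and -0.62 (error 0.33), and CUC1 had -0.11 and 0.021. The deposited p-values of CUC2 were 0.000802 and 0.0581, so it passed the limit in replicate 1 only and was not called. The mean of CUC2, -0.81, was -0.49 to -0.30 in the 4 other combinations. In cuc1-1 an amino acid is exchanged and cuc2-1 carries a transposon insertion, and where the probes lie relative to these lesions was not tested. The 8 embryo markers, among them LEC1 and FUS3, were all well above background in every channel, against 2 of 5 seed coat markers and 2 of 6 endosperm markers. The summed signal of the seed coat markers was 660 and 970 in cuc1 cuc2 and 735 and 878 in Ler in replicates 1 and 2. That of the endosperm markers was 1505 and 1484 in cuc1 cuc2, and 1193 and 1423 in Ler. Among the 8 embryo markers the median of the mean log2 ratios was 0.033, with 4 differing in sign between the hybridizations. The embryo maturation genes OLEO1 and SESA3 were called higher in cuc1 cuc2, with mean log2 ratios of 0.60 and 0.71, whereas CRA1, a seed storage protein gene, was below 0 in both hybridizations with a mean of -0.26. The seed coat sum was lower in cuc1 cuc2 in replicate 1 and higher in replicate 2. The endosperm sum was higher in both. With only 2 of the 6 endosperm markers well above background in every channel, the signs of the others say little. Of the 6, 4 differed in sign and 1 was above 0 in both hybridizations, beside 23.1% of all gene probes. That 1 was SUC5, with signals of 790 and 678 in cuc1 cuc2 and 481 and 641 in Ler in replicates 1 and 2. The part of these markers in the ratio of YAB3 was not tested.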

How the data were processed

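The authors deposited the output of Agilent Feature Extraction 7.5.1 for each array. The intensity values deposited by the authors are the scanned brightness and local background of each spot, and signals corrected for background and spatial trend and normalized between dyes. The deposited log10 ratio of Cy5 over Cy3, its error and its p-value come from the software's error model of a single array. A deposited table of the series holds the same log10 ratios turned to cuc1 cuc2 over Ler. The probes' sequences and genome build were not used here.

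The ratios were converted to base 2, given the direction cuc1 cuc2 over Ler by the dye labels, and averaged over both hybridizations. The error of the mean combines both deposited errors. Calls use the study's p limit, a deposited p-value under 0.01 on both arrays, which the study applied to lower genes and which is applied here in both directions. Precision is limited by 2 hybridizations and by brightness. A dye effect that is equal on both arrays cancels in the mean. All errors are technical. RefSeq names (TAIR10.1) matched 21191 of 21500 probes. Members and lists were chosen with earlier results of these data known. Named are all members with a probe, called or most extreme genes of each list, the mutated genes, and 3 nearest patterns to the member of largest ratio. A few further genes of the lists were picked for the text once values were known.

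Alternatives were 4 combinations of background correction (normexp with offset 50, plain subtraction or none) and normalization (loess or median centring), other call rules, and each hybridization alone. Scripts were tested on simulated data. Tools were R 4.3.3, limma 3.58.1, Python 3.11.15, numpy 2.4.6, pandas 2.3.3 and matplotlib 3.10.9.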

Additional observations from a re-analysis of the deposited data

How the results depend on the processing

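The ratios of FIL, YAB3 and KAN2 and their median moved by less than their technical error under each alternative, and 0 of the 3 genes was called under every rule tried. Technical error here is the standard deviation between hybridizations or, where larger, the software's error of the mean. The numbers over all gene probes depended on the rule. With a p limit of 0.05, 102 were called lower and 237 higher, with 0.001 the numbers were 22 and 55, and with Benjamini-Hochberg adjusted p-values under 0.05 they were 16 and 39. A single hybridization called 95 to 138 lower and 198 to 239 higher. The median of the blade growth list fell from 0.26 to 0.14 with normexp and loess, 0.12 with normexp and median centring, 0.16 with plain subtraction and 0.096 without background correction. The cause was not tested. Over single hybridizations the median of the abaxial ARF and tasiRNA list lay between 0.0085 and 0.069, and that of the adaxial list between 0.076 and 0.18. For the 38 single companion and mutated genes, 219 of 228 values under other settings stayed within that error. The other 9 were nearer to 0, namely those of STM (-1.27 to -0.79) and CUC2 (-0.49 to -0.30) under the 4 other combinations, and that of TCP10 without background correction (0.15). STM, the only called gene among the 38, kept its sign in each setting. The lower bound for dim probes gave no value, because each probe of the members and companion lists was bright or dim in both genotypes. Both genotypes were hybridized together on each array, so each ratio is a comparison within an array. With 1 extract per genotype, no paired test across embryo samples was possible.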
